A study of Mus musculus with 4 samples.

Results

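The genes described here code for the proteins of the cytosolic ribosome, the machine that translates messenger RNA. They were chosen by symbol alone: Rpl or Rps followed by a number, the stalk genes Rplp0, Rplp1 and Rplp2, and Rpsa, with pseudogene names and the S6 kinases left out. No measured value entered the choice. The rule found 86 of the 27179 rows of the deposited table, of which 46 belong to the large subunit, 31 to the small subunit and 9 are paralogs with a suffix l or l1 (Rpl3l, Rpl6l, Rpl7l1, Rpl10l, Rpl22l1, Rpl32l, Rpl39l, Rps4l and Rps27l). Symbols were matched without regard to capitals, because the table writes most of them in capitals throughout and only 4 rows match the spelling of the rule. RefSeq symbols looked up by Entrez identifier gave the same 86 rows, spread over 19 chromosomes.

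Ribosomal proteins are made in balanced amounts, carried to the nucleolus and assembled there with ribosomal RNA into the subunits. Many of their messenger RNAs begin with a terminal oligopyrimidine (TOP) tract, a C followed by a run of C and T, through which the mTOR kinase controls their translation, and the transcription factor MYC drives many genes of ribosome production. Some ribosomal proteins also act outside the ribosome, in the p53 response for example, and some paralogs are known mainly from single tissues such as testis or striated muscle.

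RNA was sequenced from lymphoid tissue inducer (LTi) cells of the small intestine lamina propria, innate lymphoid cells that make lymphotoxin and take part in building lymphoid tissue. The gate required CD127 and CCR6 and removed cells with lineage markers, KLRG1, NK1.1 or NKp46. The Gata3-KO group had 2 libraries from Gata3fl/fl mice with VavCre, a Cre active throughout the blood lineages, so that other lymphocytes of the same mice carry the deletion too. The control group had 2 libraries from Gata3+/+ mice, for which the labels name no Cre, and all mice were C57BL/6. The labels give no age or sex and do not say whether the libraries of a genotype came from separate animals, so the p-values rest on the spread among these 4 samples alone, and that spread may be technical. Gata3 itself stood at 34.5 and 23.3 RPKM (reads per kilobase of gene, scaled to library size) in the Gata3-KO libraries, against 84.3 and 50.7 RPKM in the control libraries, and this difference did not pass limma's test (log2 difference −1.18 ± 0.36 SE, adjusted p = 0.0911).

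The library totals, inferred from the deposited values, were 24315878 and 23973995 reads in Gata3-KO and 14294708 and 12670034 reads in control libraries. Depth by these totals and genotype cannot be told apart. Of 18 LTi markers Il17a was called higher and Il22 and Cd4 lower in Gata3-KO on both scales. The second scale is median-ratio scaling, which brings the median gene of all libraries to 1 level. Over the 18 the median log2 difference was −0.28 on the deposited scale and −0.87 after scaling. On the deposited scale 7 were lower and 5 higher in both Gata3-KO libraries (38.9 and 27.8%), beside 7.54 and 54.0% of all tested genes. After scaling 13 were lower and 2 higher (72.2 and 11.1%), beside 25.5 and 29.8%. Ccr6, the chemokine receptor of the gate, stood at 155 and 176 RPKM in Gata3-KO and 146 and 63.3 RPKM in control libraries. Il7r, which codes for CD127, stood at 61.2 and 45.7 RPKM in Gata3-KO and 143 and 77.6 RPKM in control, lower in both Gata3-KO libraries without passing the test (log2 difference −0.98, adjusted p = 0.141). Ncr1, which codes for NKp46, had 0.0562 and 0.428 RPKM in Gata3-KO and 6.84 and 14.8 RPKM in control, and was called lower on the deposited scale (−3.18, adjusted p = 0.0202) and not after scaling (−3.51, adjusted p = 0.0536). Markers of cells that the gate should remove were present too. The 18 B and plasma cell markers summed to 23048 to 60860 RPKM in Gata3-KO libraries and 3590 to 9295 RPKM in control libraries, and 15 of them were called higher in Gata3-KO on the deposited scale. Only 1 was after median-ratio scaling. The median log2 difference of these 18 was 3.08 on the deposited scale and 2.61 after scaling. All 18 were higher in both Gata3-KO libraries on either scale, beside 54.0% of all tested genes on the deposited scale and 29.8% after scaling. For 18 epithelial markers the sums were 2474 to 3668 RPKM and 389 to 628 RPKM, with 14 called higher on the deposited scale and 6 after scaling. Among 14 T cell markers the sums were 500 to 851 RPKM in Gata3-KO and 174 to 279 RPKM in control libraries, with 5 called on the deposited scale and 0 after scaling by limma. The median log2 difference of the 13 tested was 2.28 on the deposited scale and 1.85 after scaling. On either scale 8 (61.5%) were higher in both Gata3-KO libraries, beside 54.0% of all tested genes on the deposited scale and 29.8% after scaling. After scaling 2 (15.4%) were lower in both, beside 25.5% of all tested genes. Of 15 myeloid markers 2 were called higher and of 12 stromal markers none. Clec10a, Vwf and Cdh5 were the markers at 0 in both control libraries, and no marker was at 0 in both Gata3-KO libraries. The part of these cells in the ribosomal protein values was not tested, and in bulk RNA fewer cells of a type and less RNA per cell cannot be told apart.

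Genes of the large subunit ranged between 0.902 and 464 RPKM as means of the 4 libraries. Rpl8, which lies near the catalytic centre of the subunit, was the highest, at 528 and 518 RPKM in Gata3-KO libraries and 425 and 385 RPKM in control libraries. The stalk genes, whose products recruit elongation factors, followed, with Rplp1 at 504 and 413 RPKM in Gata3-KO against 409 and 375 RPKM in control, and Rplp0 at 432 and 450 RPKM in Gata3-KO against 327 and 312 RPKM in control. For each of these 3 genes both Gata3-KO libraries lay above both control libraries on the deposited scale and below them after median-ratio scaling. The third stalk gene, Rplp2, was lower, at 281 and 229 RPKM in Gata3-KO and 175 and 151 RPKM in control libraries. At the other end stood Rpl17, at 1.75 and 1.24 RPKM in Gata3-KO and 1.26 and 0.917 RPKM in control, and Rpl39, at 1.46 and 0.635 RPKM in Gata3-KO and 0.710 and 0.801 RPKM in control. Rpl39 had at most 7 recovered reads in a library and was not tested. The libraries of both genotypes overlapped for Rpl17 and Rpl39.

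In the small subunit the highest genes were Rps14, Rps9 and Rps3, all of them core structural proteins. Rps14 had 564 and 508 RPKM in Gata3-KO libraries and 495 and 341 RPKM in control libraries. Rps9 had 426 and 389 RPKM in Gata3-KO libraries and 357 and 275 RPKM in control libraries, and Rps3, which also takes part in DNA repair and NF-kB signalling, had 307 and 290 RPKM in Gata3-KO and 281 and 178 RPKM in control. All 3 were higher in both Gata3-KO libraries on the deposited scale, and overlapped between genotypes after median-ratio scaling. The lowest was Rpsa, known also as the laminin receptor, at 5.75 and 5.54 RPKM in Gata3-KO and 3.53 and 2.25 RPKM in control. The median level over the 46 large subunit genes was 21.9 RPKM and that over the 31 small subunit genes 31.0 RPKM, both as means of the 4 libraries.

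**Figure D1:**
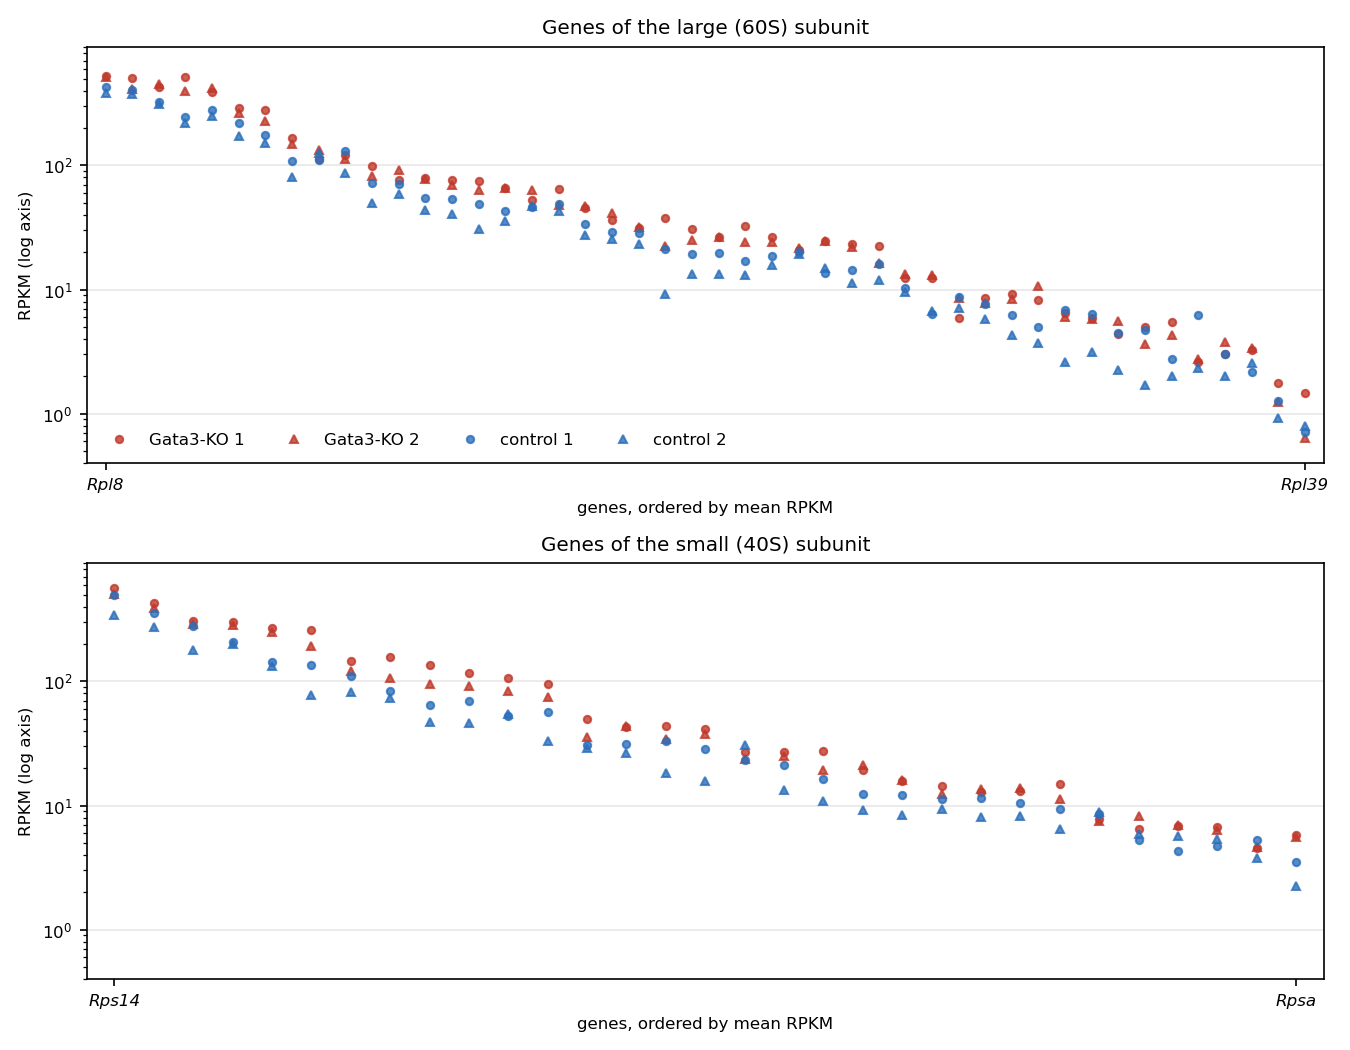
Level in RPKM (log axis) of each large subunit gene (upper panel) and small subunit gene (lower panel) in the 4 libraries, ordered by mean level, with the highest and lowest gene of each subunit named; each point is 1 library. Levels ran between 477 RPKM for Rps14 and 0.902 RPKM for Rpl39, and the Gata3-KO points lie mostly just above the control points.

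The order of the genes was nearly the same in all 4 libraries although their levels differed widely. Over the 76 large and small subunit genes tested, Pearson correlations of log2(scaled RPKM + 1) between pairs of libraries ran between 0.979 and 0.994, a description over genes that share the same libraries. After median-ratio scaling the SD of the gene-wise differences was 0.23 between the Gata3-KO libraries, 0.33 between the control libraries and 0.29 between the genotype means, all in log2 units. The last of these is a difference of means of 2 libraries and the others are differences of single libraries, so their sizes cannot be set against each other. Rpl8, Rps14, Rplp1, Rplp0, Rps9 and Rpl32 together made up 37.6 and 37.3% of the members' RPKM in Gata3-KO libraries, against 39.6 and 41.0% in control libraries.

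Ribosomal protein genes have many processed pseudogenes, and reads that match several positions may be lost or shared in counting. Each annotated transcript was therefore cut into 50-base and 100-base windows, and windows were searched in the transcripts of other loci of GENCODE M21. The highly expressed Rpl8 and Rps3 shared a 50-base window with 1 other locus each. Of the 77 large and small subunit genes Rpl7a had the most, 123 loci, and it stood at 36.5 and 41.6 RPKM in Gata3-KO and 29.1 and 25.7 RPKM in control. Level was lower with a larger number of such loci (Spearman −0.53 over 77 genes) and a larger share of 100-base windows found elsewhere (Spearman −0.49), given as descriptions over genes of the same libraries. The 27 genes with at least 50% of their 100-base windows elsewhere had a median of 15.5 RPKM, and the other 50 genes 52.3 RPKM. Exceptions by the share of 100-base windows were Rpl39, the lowest gene, with 1.75% elsewhere, and Rps27, at 26.2 RPKM with 98.4%. By number of loci Rpl39 was no exception: it shared a 50-base window with 9 other loci, where the median of the 77 genes was 10. Of its 50-base windows 16.5% were elsewhere, where the median was 49.0%. The log2 difference between genotypes after scaling showed no such relation (Spearman −0.15 with the share and −0.08 with the number of loci, both for 100-base windows). How the counting treated reads with several positions is not given in the sources used here, so low levels of the genes with many copies are uncertain.

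**Figure D2:**
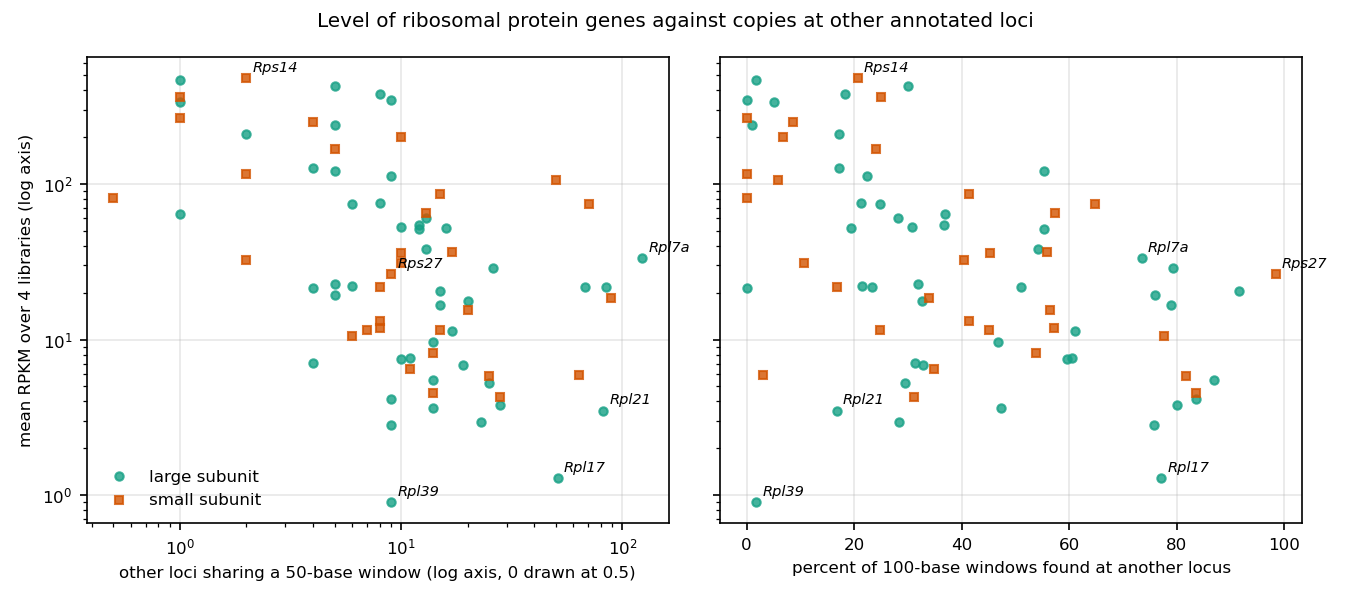
Mean RPKM over the 4 libraries (log axis) of the 77 large and small subunit genes against the number of other annotated loci that share a 50-base window (left, log axis, 0 drawn at 0.5) and the percent of 100-base windows found at another locus (right). Genes with few copies reach up to 477 RPKM and of the 27 genes with at least 50% of their 100-base windows shared the highest stands at 121 RPKM.

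None of the ribosomal protein genes passed the threshold between the genotypes by limma's test with Benjamini-Hochberg adjustment over all genes. Of the 86 members 83 passed the filter on low values (Rpl39, Rpl3l and Rpl10l did not), and 0 of 83 were called, against 8.91% of the 14314 tested genes (8.23% higher and 0.685% lower in Gata3-KO). At an unadjusted p under 0.05 there were 21 of 83 members, all higher in Gata3-KO, which is 25.3% beside 30.4% of all tested genes. With limma-voom on recovered reads 0 members were called and 12 had an unadjusted p under 0.05, beside 1.53% and 28.0% of all genes. After median-ratio scaling 0 members were called, beside 0.999% of all genes (0.566% higher and 0.433% lower), and 1 had an unadjusted p under 0.05, beside 22.5%. A missed threshold does not show that levels were equal: the median SE of a member's log2 difference was 0.30.

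On the deposited scale 78 of 83 members (94.0%) had a positive log2 difference, beside 78.3% of all tested genes. Their median was 0.52, where the median of all tested genes was 0.43. After median-ratio scaling 38 of 83 (45.8%) were positive, beside 52.7% of all tested genes. The median was then −0.03, with 0.04 over all genes. Large subunit genes had a median of 0.50 on the deposited scale and −0.03 after scaling, small subunit genes 0.58 and −0.0032, and the 7 tested paralogs 0.53 and −0.0040. Both Gata3-KO libraries lay above both control libraries in 66 of 83 members (79.5%) on the deposited scale, where 54.0% of all tested genes did, and in 11 members after scaling, where 29.8% did. Both lay below in 1 member on the deposited scale, beside 7.54% of all genes, and in 19 members after scaling, beside 25.5%. The lower and upper quartiles of the members' differences were 0.34 and 0.75 on the deposited scale, where those of all genes were 0.06 and 0.89.

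**Figure D3:**
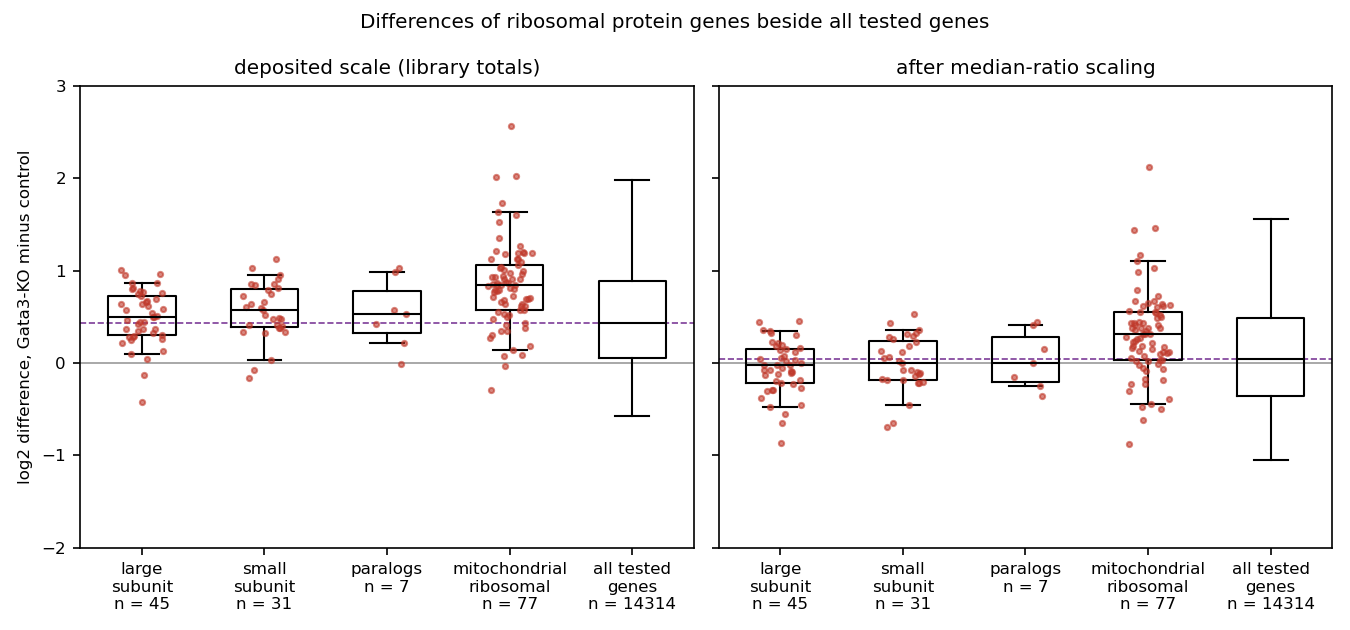
Log2 difference, Gata3-KO minus control, on the deposited scale (left) and after median-ratio scaling (right), for tested large subunit, small subunit, paralog and mitochondrial ribosomal protein genes (points) and for all tested genes; boxes give quartiles, whiskers the 5th and 95th percentiles, the dashed line the median of all genes. Medians of the cytosolic groups lie at 0.50 to 0.58 on the left and just below 0 on the right, and that of the mitochondrial group at 0.84 and 0.32.

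Among large subunit genes the highest values relative to the median gene were those of Rpl27a, Rpl38, Rpl32 and Rpl5, none of which passed the test. Rpl27a had 8.17 and 10.7 RPKM in Gata3-KO and 4.97 and 3.69 RPKM in control (log2 difference 0.97 ± 0.32, adjusted p = 0.11; 0.45 after scaling). Rpl38, which is required in mice for translating certain Hox messenger RNAs, had 37.8 and 22.3 RPKM in Gata3-KO and 21.04 and 9.20 RPKM in control, with a log2 difference of 1.00 ± 0.46 and 0.44 after scaling. Rpl32 had 515 and 396 RPKM in Gata3-KO, against 245 and 221 RPKM in control (0.96 ± 0.30, adjusted p = 0.0975; 0.36 after scaling). In all 3 both Gata3-KO libraries were higher on the deposited scale, and after scaling this held for Rpl27a and Rpl32 and not for Rpl38.

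The lowest values relative to the median gene in the large subunit were those of Rpl21, Rpl27, Rpl18 and Rpl10. Rpl21 had 2.59 and 2.76 RPKM in Gata3-KO and 6.26 and 2.34 RPKM in control, so control replicate 1 stood apart, and its log2 difference was −0.42 ± 0.45 on the deposited scale and −0.86 after scaling. It shares 50-base windows with 82 other loci. Rpl18 had 113 and 133 RPKM in Gata3-KO and 111 and 127 RPKM in control, with a difference of 0.04 on the deposited scale and −0.55 after scaling. Rpl10, needed for the last steps of large subunit maturation, had 20.7 and 21.5 RPKM in Gata3-KO and 20.2 and 19.3 RPKM in control (0.09, and −0.48 after scaling). For Rpl27 the values were 5.94 and 8.58 RPKM in Gata3-KO and 8.77 and 7.10 RPKM in control, which overlapped (−0.13, and −0.65 after scaling). After scaling both Gata3-KO libraries lay below both control libraries in all 4 genes, and none passed the test on either scale.

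In the small subunit Rps26, which binds messenger RNA at the exit channel, had the largest positive difference of all members. It had 259 and 194 RPKM in Gata3-KO libraries and 136 and 77.3 RPKM in control libraries, a log2 difference of 1.12 ± 0.37 (adjusted p = 0.104) and 0.53 after scaling. Rps19, mutated in people with Diamond-Blackfan anaemia, had 135 and 95.1 RPKM in Gata3-KO and 64.4 and 47.3 RPKM in control (1.02 ± 0.31, adjusted p = 0.0925; 0.43 after scaling). Rps18 was similar, with 96.0 and 74.8 RPKM in Gata3-KO and 57.1 and 33.0 RPKM in control. The Gata3-KO values of Rps26, Rps19 and Rps18 were all above the control values on the deposited scale and overlapped them after scaling.

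Rps27a, which is made as a fusion with ubiquitin, was the only member that was lower in both Gata3-KO libraries than in both control libraries on the deposited scale, and it was lower after median-ratio scaling too. It stood at 7.86 and 7.47 RPKM in Gata3-KO and 8.52 and 8.94 RPKM in control, a log2 difference of −0.17 ± 0.28 on the deposited scale and −0.70 ± 0.26 after scaling (adjusted p = 0.207, the lowest of any member on that scale). Rps27 had 26.9 and 23.9 RPKM in Gata3-KO and 23.2 and 30.9 RPKM in control, and Rps6, the substrate of S6 kinase, had 4.54 and 4.64 RPKM in Gata3-KO and 5.27 and 3.79 RPKM in control. Both overlapped between genotypes on the deposited scale and lay below in both Gata3-KO libraries after scaling, with log2 differences of −0.65 for Rps27 and −0.46 for Rps6, without passing the test.

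Members with known roles outside the ribosome include the 5 given next. For each, both Gata3-KO libraries lay above both control libraries on the deposited scale, as in 54.0% of all tested genes. After scaling this held for Rpl5 and Rpsa alone, beside 29.8% of all tested genes. Of the other members listed for such roles, Rps3, Rps19 and Rplp0 also lay above on the deposited scale. Rps6 and Rpl22l1 overlapped between genotypes there, and Rps27a was lower in both Gata3-KO libraries. Rpl5 and Rpl11, which together hold back MDM2 when ribosome assembly fails, are given first. Rpl5 had 5.44 and 4.32 RPKM in Gata3-KO and 2.77 and 1.99 RPKM in control (log2 difference 0.80, and 0.35 after scaling). Rpl11 had 8.52 and 7.86 RPKM in Gata3-KO and 7.66 and 5.85 RPKM in control (0.25, and −0.27 after scaling). The difference between those genes was not tested. Rpl22, needed for the development of αβ T cells in mice, had 26.5 and 24.3 RPKM in Gata3-KO and 18.7 and 15.7 RPKM in control (0.54, and −0.03 after scaling). Rpl13a, part of a complex that silences inflammatory messenger RNAs in human myeloid cells, had 291 and 263 RPKM in Gata3-KO and 220 and 174 RPKM in control (0.50, and −0.10 after scaling). Rpsa reached a log2 difference of 0.79 on the deposited scale and 0.32 after scaling, with no overlap between genotypes on either. None of the 5 passed limma's test.

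The paralogs were either expressed at the level of a core gene, low, or nearly absent. Rps27l, a paralog of Rps27 that p53 induces, was the highest, at 102 and 92.1 RPKM in Gata3-KO libraries and 56.5 and 39.3 RPKM in control libraries. It lay above Rps27 in all 4 libraries, and both Gata3-KO libraries lay above both control libraries on either scale. Its log2 difference of 1.03 ± 0.29 gave the lowest adjusted p of all members on the deposited scale (adjusted p = 0.078) and was 0.44 after scaling (adjusted p = 0.348). The coding sequences of Rps27l (chromosome 9) and Rps27 (chromosome 3), from GENCODE M21 on GRCm38, differ at 60 of 252 bases and share no 50-base window. Of the 50-base windows of Rps27, 98.6% occur at other loci, so its low level and the order of this pair are uncertain. Both sequences are printed to show how far the paralog with the lowest adjusted p can be told from its partner, 5′ to 3′ on the coding strand, with the differing bases in capitals.
Rps27l: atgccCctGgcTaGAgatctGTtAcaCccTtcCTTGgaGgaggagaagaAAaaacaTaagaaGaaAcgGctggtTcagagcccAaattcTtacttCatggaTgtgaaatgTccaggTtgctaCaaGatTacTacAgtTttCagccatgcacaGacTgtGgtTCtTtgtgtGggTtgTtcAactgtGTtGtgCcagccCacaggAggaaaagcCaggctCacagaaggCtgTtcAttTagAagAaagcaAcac
Rps27: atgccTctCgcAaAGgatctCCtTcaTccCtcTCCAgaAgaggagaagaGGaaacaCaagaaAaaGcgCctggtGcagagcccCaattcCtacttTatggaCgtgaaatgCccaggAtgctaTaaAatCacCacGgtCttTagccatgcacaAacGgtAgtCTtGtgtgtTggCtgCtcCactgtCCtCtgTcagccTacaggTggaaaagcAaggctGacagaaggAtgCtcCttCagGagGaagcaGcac

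Rpl22l1 was at 27.2 and 36.5 RPKM in Gata3-KO and 28.3 and 15.4 RPKM in control, about the level of its partner Rpl22, and the genotypes overlapped. Rpl7l1, a nucleolar relative of Rpl7, had 29.8 and 29.5 RPKM in Gata3-KO and 28.8 and 22.5 RPKM in control, below Rpl7 at 76.7 and 69.5 RPKM in Gata3-KO and 53.6 and 40.6 RPKM in control. Rps4l, annotated as a transcribed pseudogene, had 16.7 and 57.8 RPKM in Gata3-KO and 22.7 and 23.2 RPKM in control. Its value rested on Gata3-KO replicate 2: the log2 difference was 0.43 with all libraries, −0.44 without that library and 1.29 without Gata3-KO replicate 1. Rps4x, its partner, was lower than Rps4l in every library, at 6.51 and 8.25 RPKM in Gata3-KO and 5.30 and 5.89 RPKM in control. Of their 50-base windows, 72.2% for Rps4x and 14.9% for Rps4l occur at other loci, so the order of this pair is uncertain. Rpl32l had 62.9 and 34.7 RPKM in Gata3-KO and 24.0 and 22.1 RPKM in control (0.99 ± 0.35, adjusted p = 0.121 by limma). Of its 350 windows of 50 bases, 68 occur in Rpl32, while 0% of its 100-base windows occur at another locus. How reads with several positions were counted is not given, so how many of its reads were affected is not known. The annotated pseudogene Rpl6l was low, at 1.86 and 2.78 RPKM in Gata3-KO and 0.978 and 1.61 RPKM in control, and shares 508 of 822 windows with Rpl6, which stood at 45.1 and 47.0 RPKM in Gata3-KO and 33.7 and 27.3 RPKM in control.

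The paralogs known from single tissues were at or near 0. Rpl39l, a testis paralog of the X-linked Rpl39, had 0.460 and 1.09 RPKM in Gata3-KO and 1.22 and 0.392 RPKM in control, on 4 to 21 recovered reads a library, and the genotypes overlapped. Rpl39 itself was as low, so the pair could not be ordered here. Rpl3l, the paralog of striated muscle, was at 0, 0.654, 0 and 0 RPKM in Gata3-KO replicates 1 and 2 and control replicates 1 and 2, beside Rpl3 at 31.3 and 32.0 RPKM in Gata3-KO and 28.5 and 23.5 RPKM in control. Rpl10l, a testis paralog of the X-linked Rpl10, had a single library above 0, Gata3-KO replicate 2 at 0.0408 RPKM on 1 read. No fold is given for Rpl3l and Rpl10l, since both control libraries were at 0. The coding sequences of Rpl39l (chromosome 16) and Rpl39 (chromosome X) differ at 23 of 153 bases, shown in capitals as above, and share no 50-base window.
Rpl39l: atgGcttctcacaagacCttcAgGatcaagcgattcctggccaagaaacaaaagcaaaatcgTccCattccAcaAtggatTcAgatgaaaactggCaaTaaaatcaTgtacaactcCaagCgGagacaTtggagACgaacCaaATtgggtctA
Rpl39: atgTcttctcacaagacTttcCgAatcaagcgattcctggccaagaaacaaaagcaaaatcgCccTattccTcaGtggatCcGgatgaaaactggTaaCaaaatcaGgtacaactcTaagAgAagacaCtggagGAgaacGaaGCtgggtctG

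**Figure D4:**
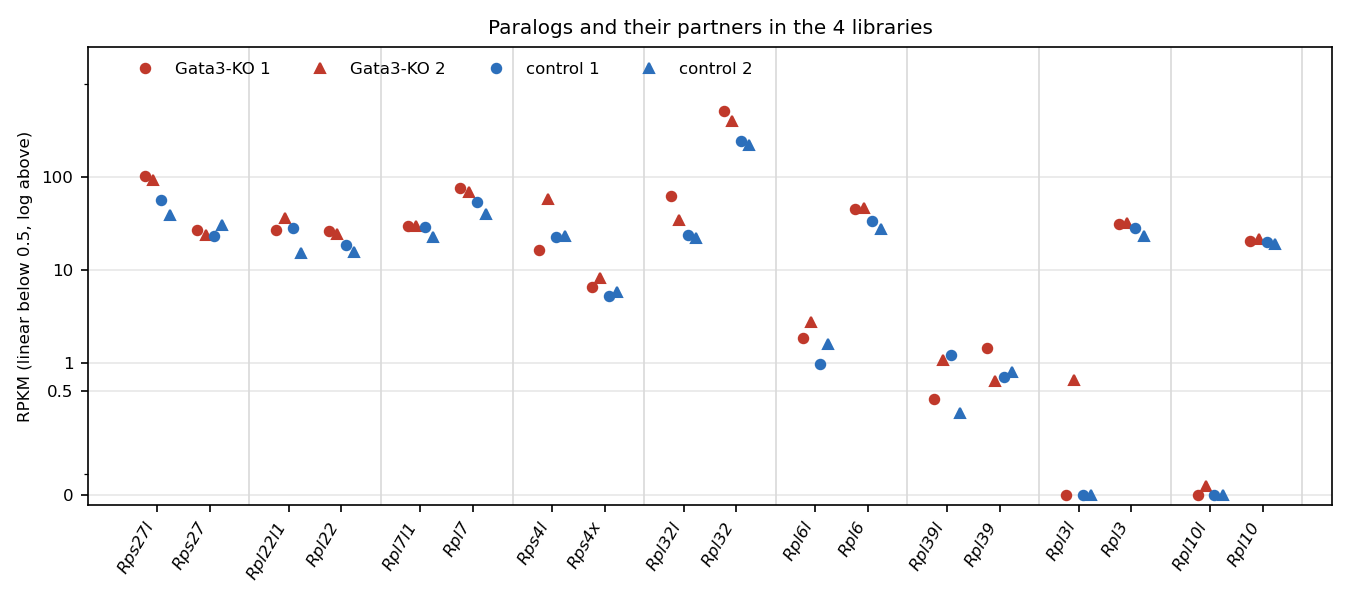
RPKM of each paralog (left of each pair) and its partner in the 4 libraries (linear below 0.5, log above), each point 1 library. Rps27l lies above Rps27 in every library, Gata3-KO replicate 2 of Rps4l stands apart at 57.8 RPKM, and Rpl3l and Rpl10l are above 0 in 1 library each. The order of Rps27l and Rps27 is uncertain, since 98.6% of the 50-base windows of Rps27 occur at other loci.

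Start sites in RefSeq (GRCm38.p6) show how many of these genes begin with TOP letters, which the choice of members did not use. Starts were at hand for 57 of the 77 large and small subunit genes. The highly expressed Rps14, Rpl8, Rplp1 and Rpl32 were not among them. A start was counted where its first base was C and a run of at least 5 letters, C or T, began there, read on the gene's own strand. This held for 13 of 67 annotated starts of large and small subunit genes (19.4%), for 1 of 9 starts of paralogs, and for 2.22% of the 22195 starts of other genes in the table. A run of at least 8 such letters within 25 bases on either side was found at 46.3% of the starts of large and small subunit genes and 19.3% of those of other genes. The windows below hold 12 bases before and 18 bases from the annotated start, with the run at the start in capitals, for 4 members that have it and for 2 of the most highly expressed members whose annotated start has none. A match is a description of letters, and its absence says only that the annotated base does not begin such a run.
Rps18 (chr17:33955648-33955677, minus strand): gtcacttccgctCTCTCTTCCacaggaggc
Rps10 (chr17:27635227-27635256, minus strand): ccgcgcacgcccCTTCCTTTCCagcctccg
Rps6 (chr4:86857350-86857379, minus strand): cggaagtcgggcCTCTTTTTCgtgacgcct
Rpl35 (chr2:39005114-39005143, minus strand): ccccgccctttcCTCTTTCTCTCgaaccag
Rplp0 (chr5:115559455-115559484, plus strand): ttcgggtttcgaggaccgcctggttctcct
Rpl4 (chr9:64173375-64173404, plus strand): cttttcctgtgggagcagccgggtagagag

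Among the large and small subunit genes with a start at hand, those with and without the run overlapped in level. The 13 genes with a run at a start had a median level of 26.2 RPKM (2.96 to 209 RPKM) and a median log2 difference of 0.64 on the deposited scale and 0.06 after scaling. The 44 genes without had a median level of 21.4 RPKM (0.902 to 380 RPKM) and median differences of 0.54 on the deposited scale and −0.02 after scaling. Rpl35, with a run of 11 letters, had 65.5 and 65.5 RPKM in Gata3-KO and 43.0 and 35.8 RPKM in control, and Rpl4, without one, had 390 and 422 RPKM in Gata3-KO and 280 and 249 RPKM in control.

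Relatives that the symbol rule leaves out were not called either. Rpl36al had 84.1 and 83.4 RPKM in Gata3-KO and 48.8 and 42.7 RPKM in control (log2 difference 0.86 ± 0.26, adjusted p = 0.0862 by limma, and 0.27 after scaling). This was far above Rpl36a, its X-linked partner, at 4.37 and 5.63 RPKM in Gata3-KO and 4.43 and 2.26 RPKM in control. Of the 50-base windows of Rpl36a, 85.5% occur at other loci, so its low level is uncertain. Rpl37rt had 134 and 104 RPKM in Gata3-KO and 77.3 and 66.4 RPKM in control, and Rps27rt had 39.0 and 31.5 RPKM in Gata3-KO and 39.1 and 18.6 RPKM in control. Rack1, a scaffold on the small subunit, had 145 and 127 RPKM in Gata3-KO and 85.02 and 72.1 RPKM in control, a log2 difference of 0.79, and 0.20 after scaling. Neither Rack1 nor Fau, whose product is a fusion with a ubiquitin-like protein, was called. Among 36 pseudogene rows 17 were tested and 0 called, with a median of 0.37 on the deposited scale and −0.08 after scaling.

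Genes of ribosome production and translation held no calls on either scale. None of 77 ribosome biogenesis factors was called (median 0.39, and −0.14 after scaling), nor any of 20 elongation factors and other TOP messenger RNAs (0.44, and −0.11 after scaling), 21 initiation factors (0.35, and −0.25 after scaling) or 12 tested genes of ribosome rescue and RNA decay (0.21, and −0.31 after scaling). On the deposited scale an unadjusted p under 0.05 by limma was reached by 15, 1, 4 and 1 of them, in that order, and by 30.4% of all tested genes. After scaling it was reached by 13, 0, 5 and 1, and by 22.5% of all tested genes. Both Gata3-KO libraries then lay below both control libraries in 28, 6, 12 and 6 genes (36.4, 30, 57.1 and 50%), beside 25.5% of all tested genes. They lay above in 13, 0, 2 and 2 genes, beside 29.8%. Among the 8 tested genes of nucleolar stress and p53, none was called (0.59, and 0.10 after scaling). Of 77 tested mitochondrial ribosomal proteins, which make a separate ribosome, 5 were called higher in Gata3-KO on the deposited scale (median 0.84), where 8.23% of all tested genes were, and 0 after scaling (median 0.32). At an unadjusted p under 0.05 by limma there were 44 of the 77 (57.1%) on the deposited scale, beside 30.4% of all tested genes. After scaling there were 12 of the 77, beside 22.5% of all tested genes.

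Among regulators upstream of ribosome production 4 genes were called, all higher in Gata3-KO on the deposited scale, where 8.23% of all tested genes were. Myc, which drives ribosome genes, had 67.3 and 80.2 RPKM in Gata3-KO libraries and 4.67 and 16.6 RPKM in control libraries, and rose on the deposited scale (log2 difference 2.90 ± 0.55, adjusted p = 0.0361) and did not pass after scaling (2.33, adjusted p = 0.119). Its relative Mycn had 11.8 and 5.95 RPKM in Gata3-KO and 0.431 and 1.73 RPKM in control, and Mlx, a partner in the MYC network, had 22.9 and 26.3 RPKM in Gata3-KO and 8.18 and 11.1 RPKM in control. Both rose on the deposited scale (adjusted p = 0.0428 for Mycn and 0.0496 for Mlx), and neither passed after scaling. These were 3 of 9 tested MYC network genes (median 1.04, and 0.50 after scaling). In the mTOR and S6 kinase list 1 of 27 genes was called, a share below the 8.23% of all genes. This was Eif4ebp1, the inhibitor of cap-dependent initiation that mTOR phosphorylates, at 26.4 and 32.6 RPKM in Gata3-KO and 1.93 and 6.03 RPKM in control (2.74 ± 0.46, adjusted p = 0.0283 on the deposited scale; adjusted p = 0.101 after scaling). Markers of B and plasma cells and of epithelium were higher in the same libraries, as given above, and their part in these 4 values was not tested. With any 1 library left out no gene was called on the deposited scale, these 4 included.

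As a share of all RPKM, ribosomal protein genes took 1.11 and 1.27% in Gata3-KO libraries and 1.40 and 1.16% in control libraries, which overlapped. Counted instead as recovered reads over the library total, with no division by gene length, they took 0.618 and 0.583% in Gata3-KO and 0.463 and 0.378% in control libraries. By that measure both Gata3-KO libraries lay above both control libraries, so the 2 measures order the genotype means in opposite ways. Of all RPKM, large subunit genes took 0.615 and 0.720% in Gata3-KO and 0.784 and 0.690% in control. Small subunit genes took 0.459 and 0.502% of RPKM in Gata3-KO and 0.573 and 0.442% in control. As recovered reads over the library total, large subunit genes took 0.360 and 0.349% in Gata3-KO and 0.268 and 0.233% in control. Small subunit genes took 0.239 and 0.212% of reads in Gata3-KO and 0.179 and 0.133% in control. The 10 highest rows of the table, immunoglobulin, ribosomal RNA, Slc29a3, Slc39a6 and Junb rows, held 36.1 and 24.9% of all RPKM in Gata3-KO and 22.9 and 31.2% in control. Without those rows the members' share was 1.73 and 1.69% in Gata3-KO and 1.81 and 1.69% in control. Slc29a3 alone held 7.87 and 7.61% of the reads in Gata3-KO and 17.2 and 27.1% in control libraries, and these reads are part of the library totals that the deposited scale divides by. Its part in the deposited differences was not tested. The ratio of large to small subunit RPKM was 1.34 and 1.43 in Gata3-KO and 1.37 and 1.56 in control libraries.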

How the data were processed

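RNA of 2 Gata3-KO and 2 control LTi libraries was sequenced after Smart-seq2 amplification, per the labels. Per the submitters' processing notes, Subread, featureCounts and the mm10 genome were used; no version is stated, and how strand and multiply aligned reads were treated is not given in the sources at hand. The authors deposited log2 values, which the values themselves show to be log2(RPKM + 1) plus 0.0001, and RPKM was obtained by undoing that logarithm. Because a gene's RPKM values are whole multiples of 1 read, reads were recovered from their steps within a tolerance of 0.001 reads. They added up to 98.6 to 99.1% of the library totals, and gene lengths found this way are uncertain for single genes. A gene was tested where 2 or more libraries reached 0.5 CPM and its reads came to 15 or more.

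The comparison used limma 3.58.1 in R 4.3.3 with trended, robust variance on log2(RPKM + 1), two-sided, with Benjamini-Hochberg adjustment over 14314 genes and a threshold of 0.05, so fold changes of low genes are understated. No covariate was used. The deposited scale divides by library totals; median-ratio scaling, which moved the median difference of all genes by over 0.1 (0.43 on the deposited scale, 0.04 after it), is given beside it. Limma-voom on recovered reads, other scalings, filters and pseudocounts, a replicate block and leaving out each library were alternatives. The fit was tested on simulated data. The design had named the table as log2(RPKM + 1), and the values held to that.

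Named were all paralogs with their partners, the 3 highest genes per subunit, up to 4 genes per subunit with the most positive and most negative scaled differences, and members with known roles outside the ribosome. Rpl7a, Rpl35, Rpl4, Rpl36a and Rplp2 were named in addition, after their values were seen, and some genes under the rule are not reported here. The members, gene lists, markers and tests were chosen with earlier results of these data known. Identifiers were matched to RefSeq for 25275 of 27179 rows, and copies were searched in GENCODE M21 transcripts.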

Additional observations from a re-analysis of the deposited data

How the results depend on the processing

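The 4 libraries limit what could be seen, and depth goes with genotype. No ribosomal protein gene was called under any setting run, and the lowest adjusted p of a named gene in any of them was 0.0546 by limma (5 RPKM filter; over all settings the lowest member's adjusted p ranged up to 0.517). Over all genes 1276 were called, against 143 after median-ratio scaling, 146 with ribosomal protein genes left out of that scaling, 180 after upper-quartile scaling, 219 by limma-voom and 0 by limma without a filter, where 4336 had an unadjusted p under 0.05. Leaving out single libraries gave 0 to 92 called genes over both scales and a member median of −0.11 to 0.70. On the deposited scale no gene was called without any 1 library, while 2406 to 3819 genes had an unadjusted p below 0.05. The cause was not tested.

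The members' median of 0.52 was −0.026 after median-ratio scaling, −0.027 with the members left out of it and 0.0035 after upper-quartile scaling. Same-numbered libraries did not deviate together (correlation −0.02 over 14314 genes). That value rests on a single deviation per genotype, so it cannot show whether the numbers pair the libraries. With a replicate block 1021 genes were called, and with the block and median-ratio scaling 26, where the member median was −0.026. The members took 1.19% of RPKM in Gata3-KO and 1.28% in control libraries on average, 0.6003% and 0.421% as recovered reads over the library total (higher in both Gata3-KO libraries, so the direction turns), and 1.71% and 1.75% of RPKM without the 10 highest rows, an alternative chosen after seeing the data.

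Log2 differences turned negative after median-ratio scaling, with or without the block, for Rpl8 −0.23, Rplp1 −0.38, Rplp0 −0.13, Rpl13a −0.10, Rpl18 −0.55, Rpl3 −0.30, Rpl22 −0.026, Rpl10 −0.48, Rpl11 −0.27, Rps4l −0.15, Rpl7l1 −0.36, Rpl22l1 −0.0040, Rps14 −0.21, Rps9 −0.22, Rps3 −0.18, Rps4x −0.18, Rps6 −0.46, and with the members left out of the scaling for the same genes (Rpl22 −0.027 and Rpl22l1 −0.0051 there). After upper-quartile scaling they were Rpl8 −0.19, Rplp1 −0.35, Rplp0 −0.10, Rpl13a −0.064, Rpl18 −0.52, Rpl3 −0.27, Rpl10 −0.45, Rpl11 −0.24, Rps4l −0.12, Rpl7l1 −0.33, Rps14 −0.18, Rps9 −0.19, Rps3 −0.15, Rps4x −0.15, Rps6 −0.43. With a pseudocount of 0.1 Rpl39l was 0.019. Leaving out single libraries, over both scales, gave Rpl27 −0.82 to 0.11, Rpl39l −0.59 to 0.33, Rpl8 −0.31 to 0.44, Rplp1 −0.59 to 0.36, Rplp0 −0.18 to 0.50, Rpl13a −0.24 to 0.67, Rpl18 −0.72 to 0.16, Rpl7 −0.087 to 0.83, Rpl6 −0.065 to 0.73, Rpl3 −0.35 to 0.41, Rpl22 −0.15 to 0.66, Rpl10 −0.52 to 0.13, Rpl11 −0.38 to 0.42, Rpl32l −0.074 to 1.41, Rpl7l1 −0.46 to 0.39, Rps14 −0.40 to 0.65, Rps9 −0.35 to 0.56, Rps3 −0.43 to 0.74, Rps4x −0.32 to 0.49, Rps6 −0.59 to 0.22, Rps4l −0.95 to 1.29, Rps27 −0.93 to 0.12, Rpl22l1 −0.35 to 0.99, Rpl21 −1.38 to 0.14, Rpl6l −0.12 to 0.73, Rpl38 −0.049 to 1.56.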
